A study of Mus musculus with 42 samples.

Results

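The transcription factors described here are grouped as those of effector and tissue-resident regulatory T cells. The 10 genes are Batf, Irf4, Prdm1, Pparg, Gata3, Maf, Nfil3, Bhlhe40, Id2 and Zeb2. The name of the group does not make the genes particular to those cells. They were picked by gene symbol, and all 10 were found among the 46603 genes of the raw count table. Cells that carry the reporter of the Foxp3 gene (regulatory T cells, Treg) and CD4 T cells without it (conventional T cells, Tconv) had been sorted by GFP from the DEREG transgene, which every mouse carried. The mice were TNFdARE, which lack an AU-rich element that normally destabilises the Tnf transcript and so overproduce TNF, or their wild-type (WT) littermates. The sites were the ileum with its draining mesenteric lymph node, and the synovium of the ankle with the popliteal and inguinal nodes, called joint nodes here. Bulk RNA sequencing in 3 independent experiments, A, B and C, gave 42 libraries, and cell type, site and genotype divide these into 16 groups. Groups held 3 libraries each, with these exceptions: TNFdARE Treg and TNFdARE Tconv of the mesenteric node had 2 each (B and C), TNFdARE synovial Tconv had 2 (A and B), WT synovial Treg had 2 (A and B), and WT synovial Tconv had 1 (A). The labels used here give neither the age of the mice nor the number of animals per library, and a p-value therefore reflects only how far these samples vary, which may be technical in part.

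BATF pairs with JUN proteins at AP-1 sites and recruits IRF4, and the pair opens chromatin in activated T cells and drives the conversion of resting Treg into effector Treg. PRDM1 (Blimp-1) and c-MAF act in effector Treg, where both favour production of the anti-inflammatory cytokine IL-10. GATA3 helps to maintain Treg in barrier tissues, and PPAR-gamma, a lipid-sensing nuclear receptor, is known for its role in Treg of visceral fat. NFIL3 and BHLHE40 are mostly repressors with ties to the circadian clock, ID2 blocks E proteins by binding them without touching DNA, and ZEB2 is an E-box repressor that promotes terminal differentiation of cytotoxic T cells.

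Because BATF, ZEB2, BHLHE40 and GATA3 proteins have known DNA motifs, the RefSeq promoter windows of the genes (250 bases before to 50 after a start, GRCm38.p6) were searched for them on both strands. Of the 10 genes, 8 had at least 1 window (13 windows), while Maf and Bhlhe40 had none. The AP-1 motif TGANTCA, the kind of site that BATF and JUN proteins bind, was found in 2 of those 8 genes, Prdm1 and Zeb2, and in 7.81% of all 32851 windows. CACCTG, the E-box bound by ZEB proteins, was found in Prdm1 and Pparg and in 20.2% of all windows. The motif AGATAA, which GATA factors bind, was found in Batf and in 11.2% of all windows. CACGTG, the E-box bound by BHLHE40, and GGGANTTCC, an NF-kB motif, were found in none of the 8 genes, against 7.15% and 1.68% of all windows. The matches in a window did not overlap each other. The counts above are of genes, whereas the shares are of single windows. Zeb2 has 4 windows and Pparg 3, which gives these genes more chances of a match, so a count and a share are not like for like. The AP-1 matches of Zeb2 lay in a single window, as did the CACCTG match of Pparg. The windows of Batf, Prdm1 and Zeb2 are shown because each rose in TNFdARE mesenteric Treg and holds a match, which is written in capitals on the strand of the gene: TTATCT in Batf is AGATAA read on the other strand, CAGGTG in Prdm1 is CACCTG read on the other strand, and the capitals starting with TGA are AP-1 matches.
Batf (chr12:85686470-85686769, plus strand): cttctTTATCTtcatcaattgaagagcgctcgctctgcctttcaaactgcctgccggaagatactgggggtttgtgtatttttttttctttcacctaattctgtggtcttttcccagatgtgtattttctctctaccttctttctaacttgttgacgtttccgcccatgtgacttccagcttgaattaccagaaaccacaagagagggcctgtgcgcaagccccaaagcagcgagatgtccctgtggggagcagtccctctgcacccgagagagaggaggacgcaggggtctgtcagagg
Prdm1 (chr10:44458699-44458998, minus strand): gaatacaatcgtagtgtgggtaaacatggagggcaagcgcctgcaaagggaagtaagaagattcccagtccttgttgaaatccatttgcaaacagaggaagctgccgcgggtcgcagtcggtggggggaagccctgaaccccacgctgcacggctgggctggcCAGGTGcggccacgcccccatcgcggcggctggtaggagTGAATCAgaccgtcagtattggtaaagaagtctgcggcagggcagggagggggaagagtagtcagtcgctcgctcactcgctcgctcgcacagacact
Zeb2 (chr2:45110228-45110527, minus strand): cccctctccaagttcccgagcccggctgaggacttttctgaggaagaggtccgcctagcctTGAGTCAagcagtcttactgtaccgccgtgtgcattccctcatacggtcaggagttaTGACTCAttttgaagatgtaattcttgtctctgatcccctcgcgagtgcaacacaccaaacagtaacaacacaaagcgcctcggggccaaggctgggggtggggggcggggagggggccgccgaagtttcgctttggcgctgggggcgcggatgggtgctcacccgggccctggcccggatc
A match describes the letters of a window and does not show that the factor binds there.

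Whole gene spans follow in GRCm38, from the annotation. Batf (ENSMUSG00000034266) lies on chromosome 12 from 85686669 to 85709087 on the plus strand, and Irf4 (ENSMUSG00000021356) lies on chromosome 13 from 30749226 to 30766976 on the plus strand. Prdm1 (ENSMUSG00000038151) lies on chromosome 10 from 44437177 to 44528501 on the minus strand, and Pparg (ENSMUSG00000000440) lies on chromosome 6 from 115360951 to 115490399 on the plus strand. Gata3 (ENSMUSG00000015619) lies on chromosome 2 from 9857078 to 9890034 on the minus strand, and Maf (ENSMUSG00000055435) lies on chromosome 8 from 115682942 to 115707794 on the minus strand. Nfil3 (ENSMUSG00000056749) lies on chromosome 13 from 52967209 to 52981073 on the minus strand, and Bhlhe40 (ENSMUSG00000030103) lies on chromosome 6 from 108660629 to 108666925 on the plus strand. Id2 (ENSMUSG00000020644) lies on chromosome 12 from 25093799 to 25097140 on the minus strand, and Zeb2 (ENSMUSG00000026872) lies on chromosome 2 from 44983632 to 45117395 on the minus strand.

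Total counts lay between 18261064 and 30301202 per library (median 22057352). CPM, counts scaled to library sizes corrected by the TMM method, is the unit of every level below, and an error after a mean is the standard deviation between libraries. Each comparison was tested with edgeR's quasi-likelihood F test on the raw counts, with Benjamini-Hochberg adjustment over all genes tested. A change was called below an adjusted p of 0.05, and an error after a log2 fold change is the standard error of the fit. Where groups are said not to overlap, that only describes the libraries, because the share of all genes that separate was not counted. All 10 genes passed the filter on low counts in every comparison. By Foxp3 alone, the sorts held what their names say, with Foxp3 at 1120 ± 18.5 CPM in TNFdARE mesenteric Treg and 29 ± 10.8 in the matching Tconv (n = 2 each). The exception was TNFdARE synovium, with Foxp3 at 1410 ± 58.3 CPM in Treg (n = 3) but also at 615 and 618 CPM in Tconv. Over the Treg groups the mean of Foxp3 lay between 869 and 1554 CPM, and over the other Tconv groups between 6.60 and 146. Transcripts of other cells were high in some sorts. Fibroblast and fat cell markers summed to 16639 and 13527 CPM in WT synovial Treg (A and B), where 8 T cell genes summed to 4512 and 4283. Plasma cell markers summed to 11347 CPM in TNFdARE ileal Treg A, and CD8 and NK cell markers to 1220 in WT synovial Tconv. Tconv of the joint nodes held a pair of libraries that stood apart, WT C with 31454 genes detected and TNFdARE B with 29599, against 13341 to 21065 in the other libraries. Other fits are named where they end a call, and some where they add one: DESeq2, no filter, a replicate block (the experiment as a term), a sheet number covariate (libraries numbered above 32 in the column headers), only the groups compared, 1 fit of all 42 libraries, and 1 genotype alone in a contrast that otherwise averages both. Where leaving out a library leaves 1 in its group, as for TNFdARE mesenteric and WT synovial Treg, that library is assumed to vary like the other groups, and a call then rests on a single library. The sheet number is a name used here for the S number of a column header, which the headers do not explain. In these bulk samples, fewer cells of a type and less RNA per cell cannot be told apart.

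The factors differed widely in level. Per kilobase of exon, the highest group means were 841 CPM for Bhlhe40 (TNFdARE ileal Tconv), 634 for Id2 (TNFdARE ileal Treg) and 283 for Nfil3 (WT ileal Treg). Gata3 reached 177 CPM per kilobase and Pparg 39, both in TNFdARE synovial Treg. In TNFdARE ileal Tconv, Batf reached 144, Maf 53.9, Irf4 48.8 and Zeb2 4.76 CPM per kilobase, and Prdm1 reached 41.2 in TNFdARE ileal Treg. For all 10 genes the highest group mean was in a tissue and not in a node. The lowest mean lay in WT Tconv of the joint nodes for Batf, Irf4, Maf, Nfil3 and Bhlhe40. Id2 had its lowest mean in WT mesenteric Treg (63.4 ± 13.3 CPM, n = 3), Zeb2 in WT Treg of the joint nodes (0.106 ± 0.0278 CPM, n = 3) and Gata3 in TNFdARE mesenteric Tconv (91.4 ± 6.40 CPM, n = 2). Prdm1 was lowest in the single WT synovial Tconv library, at 10.3 CPM. Pparg was at 0 CPM in that library and in every WT mesenteric Tconv library (n = 3). From the lowest to the highest group mean, Batf spanned 6.24-fold, Gata3 7.69-fold, Prdm1 22.4-fold, Irf4 23.4-fold and Id2 24.4-fold. Maf spanned 58.4-fold, Nfil3 170-fold, Bhlhe40 778-fold and Zeb2 892-fold. Pparg, with a mean of 0 in WT Tconv of the synovium and of the mesenteric node, has no such ratio. The order of the 16 group means was nearly the same in the authors' FPKM values (Spearman's rho 0.962 to 1.0 per gene, over 16 means that share the same libraries).

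**Figure D1:**
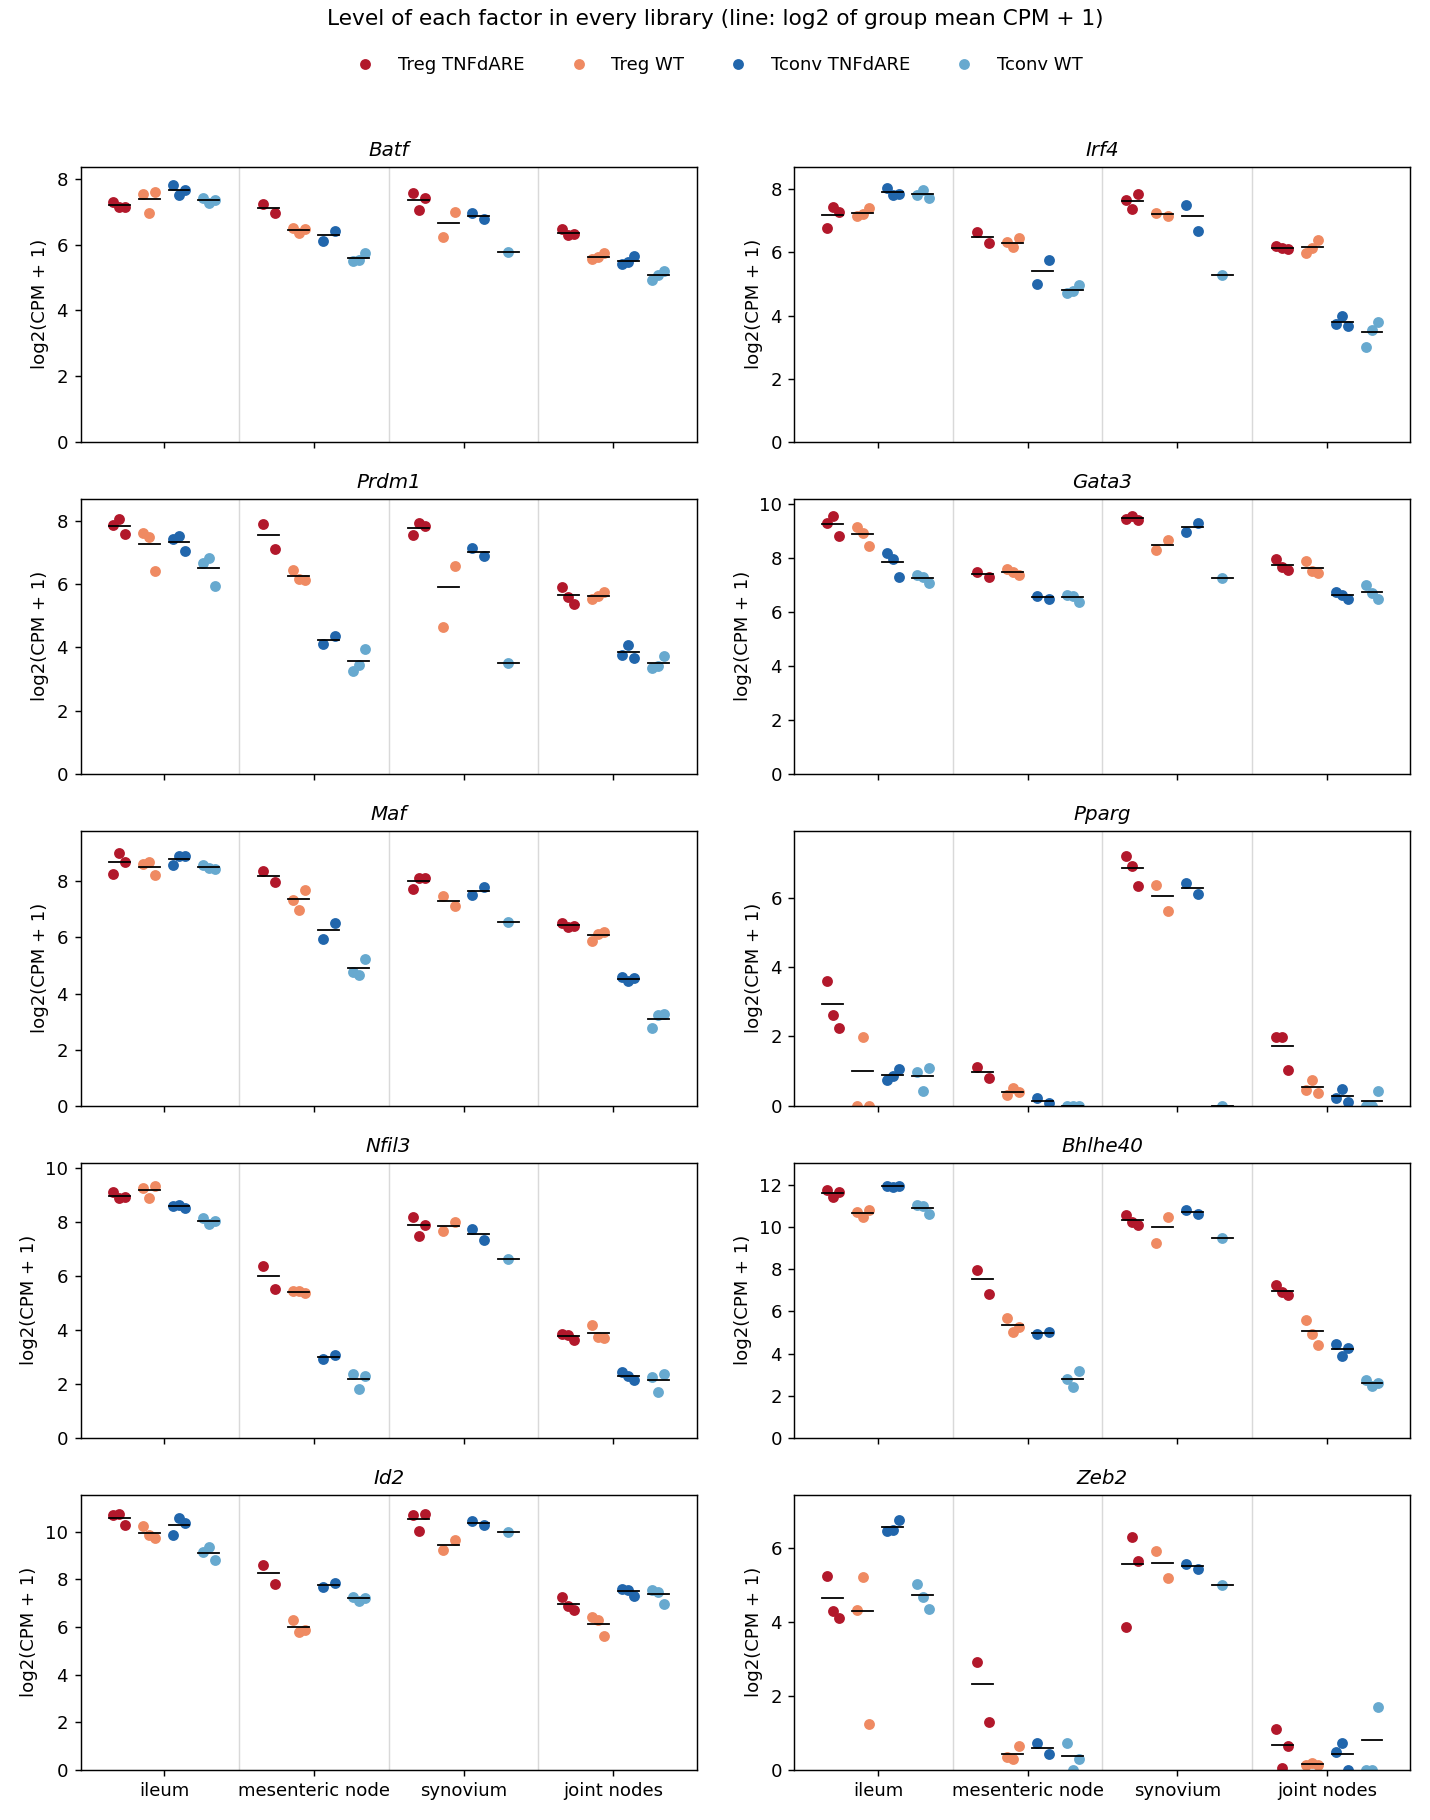
Level of each factor in every library, as log2 of CPM plus 1, by site; within a site the columns are TNFdARE Treg, WT Treg, TNFdARE Tconv and WT Tconv, each point is 1 library and each line marks the group mean. Bhlhe40 runs between 4.24 and 3996 CPM over the libraries, while Pparg stands at 48.5 CPM or more in every synovial library except the WT Tconv library, where it is 0.

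The first question was whether chronic TNF excess changed these factors in Treg of the nodes. In the mesenteric node, 6 of the 10 rose in TNFdARE Treg and none fell, against 5.68% of all genes called. The 10 had a median log2 fold change of 1.13, against 0.01 over all genes. Bhlhe40, the repressor, stood at 252 and 114 CPM in TNFdARE mesenteric Treg (B and C), against 51.1, 31.9 and 37 in WT (A, B and C; log2 fold change 2.25 ± 0.30, adjusted p = 0.0011). Id2, the E protein inhibitor, stood at 393 and 223 CPM in TNFdARE and at 78.6, 53.8 and 57.9 in WT (2.33 ± 0.21, adjusted p = 0.00014). Every TNFdARE library lay above every WT library for both genes. Batf, the AP-1 partner of IRF4, stood at 149 and 124 CPM in TNFdARE and at 89.0, 80.1 and 88.3 in WT (0.72 ± 0.12, adjusted p = 0.0033). Prdm1 stood at 238 and 138 CPM in TNFdARE and at 87.1, 70.1 and 69.1 in WT (1.37 ± 0.23, adjusted p = 0.0041). Maf stood at 328 and 254 CPM in TNFdARE and at 159, 126 and 204 in WT (0.89 ± 0.22, adjusted p = 0.036). The groups did not overlap for these 3 genes either, and TNFdARE library B was the higher of the pair each time. Nfil3 and Pparg, which were not called, did not overlap between the groups as well. Pparg passed the filter on low counts there through the TNFdARE Treg libraries, so its separation is not independent of the filter. Zeb2 was low throughout, at 6.54 and 1.45 CPM in TNFdARE and 0.277, 0.223 and 0.557 in WT (3.58 ± 0.92, adjusted p = 0.043). Irf4 (89.1 ± 15.8 and 78.5 ± 7.65 CPM, adjusted p = 0.54), Gata3 (167 ± 16.3 and 177 ± 15, adjusted p = 0.91), Nfil3 (62.8 ± 26.3 and 41.2 ± 1.44, adjusted p = 0.12) and Pparg (0.945 ± 0.309 and 0.319 ± 0.0897, adjusted p = 0.27) were not called, with TNFdARE (n = 2) before WT (n = 3) in each pair of means. Without TNFdARE library B, which leaves 1 TNFdARE library, 2 of the 10 were called (Bhlhe40 and Id2), and the adjusted p became 0.078 for Batf, 0.089 for Prdm1, 0.3 for Maf and 0.47 for Zeb2. Maf was also lost without WT Treg A or B or WT Tconv B (adjusted p 0.05 to 0.12), Zeb2 without any 1 of WT Treg A, B or C, TNFdARE Tconv B or WT Tconv C (0.05 to 0.17), while Nfil3 passed with TNFdARE library B as the single TNFdARE library, its spread taken from the other groups (1.04, adjusted p = 0.011). A single fit of all 42 libraries called 2.

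In Treg of the joint nodes, 3 of the 10 rose in TNFdARE mice and none fell, against 5.7% of all genes called. The median log2 fold change of the 10 was 0.55, against -0.01 over all genes. Batf stood at 87.5, 76.6 and 79.4 CPM in TNFdARE (A, B and C) and at 46.1, 48.1 and 52.2 in WT (0.73 ± 0.10, adjusted p = 0.00036). Bhlhe40 stood at 150, 121 and 107 CPM in TNFdARE and at 46.7, 29.6 and 20.1 in WT (1.97 ± 0.25, adjusted p = 0.00026). The libraries of the groups did not overlap for either gene, nor for Maf and Pparg, which were not called. Id2 stood at 153, 117 and 103 CPM in TNFdARE and at 83.7, 76.5 and 47.8 in WT (0.84 ± 0.22, adjusted p = 0.036). That call for Id2 was lost without any 1 of TNFdARE Treg A, B or C, WT Treg B or C, TNFdARE Tconv A or C, or WT Tconv B (adjusted p 0.053 to 0.22), with the sheet number covariate (0.63, adjusted p = 0.12) and in the fit of all 42 libraries (0.16). Pparg was low but separated the groups, at 2.95, 2.95 and 1.04 CPM in TNFdARE against 0.377, 0.687 and 0.294 in WT (2.34 ± 0.88, adjusted p = 0.15). It was called without WT Tconv C (adjusted p = 0.043), without both joint-node Tconv libraries that had the most genes detected (adjusted p = 0.031, a setting chosen after seeing the data), and with only these groups fitted (adjusted p = 0.019). Pparg passed the filter on low counts there through the TNFdARE Treg libraries, so its separation and these calls are not independent of the filter. Prdm1 averaged 49.1 ± 9.67 CPM in TNFdARE and 49.0 ± 3.92 in WT, and Irf4 averaged 70.0 ± 2.56 and 71.8 ± 10.6 in the same order (n = 3 each). Maf (0.36 ± 0.12), Gata3 (0.11 ± 0.16), Nfil3 (-0.14 ± 0.20) and Zeb2 (2.40 ± 1.66, between 0.041 and 1.16 CPM in all 6 libraries) were not called (adjusted p 0.11 to 0.78), though Maf passed with DESeq2, without the filter and with only the Treg groups fitted (adjusted p 0.022 to 0.044).

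The genotype effects of the 2 nodes were compared directly in a fit of the Treg of both. None of the 10 passed that test, against 0.351% of all genes called. Prdm1 came nearest, with a genotype effect lower in the joint nodes than in the mesenteric node by a log2 value of -1.36 ± 0.27 (adjusted p = 0.059). With the experiment as a replicate block, Prdm1 (-1.44, adjusted p = 0.012) and Id2 (-1.60, adjusted p = 0.0037) passed. DESeq2 called 1 of the 10, and 1079 genes of 15079 had an unadjusted p below 0.05. Prdm1, Nfil3 and Id2 passed without mesenteric TNFdARE Treg C (adjusted p 0.0038 to 0.033), where B is the single TNFdARE library of that node and the spread comes from the other groups. For Batf the difference was 0.02 ± 0.14 and for Bhlhe40 -0.27 ± 0.46.

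In Tconv of the mesenteric node, 3 of the 10 rose in TNFdARE mice and none fell, against 2.36% of all genes called (median log2 fold change 0.71 for the 10 and 0.00 for all genes). Bhlhe40 stood at 29 and 31.7 CPM in TNFdARE Tconv (B and C), against 5.90, 4.24 and 7.85 in WT (2.31 ± 0.33, adjusted p = 0.0032). Maf stood at 61.3 and 90.2 CPM in TNFdARE and at 26.1, 24.1 and 36.8 in WT (1.36 ± 0.23, adjusted p = 0.0074). Batf stood at 68.7 and 84.7 CPM in TNFdARE and at 44.8, 45.0 and 52.5 in WT (0.67 ± 0.12, adjusted p = 0.0098). The groups did not overlap for these 3 genes, nor for Irf4, Prdm1, Nfil3, Id2 and Pparg, which were not called. Irf4 (0.59 ± 0.19), Prdm1 (0.69 ± 0.25), Nfil3 (0.97 ± 0.26), Id2 (0.54 ± 0.21) and Zeb2 (0.72 ± 1.00) were not called, and neither was Gata3 (-0.03 ± 0.12). Pparg had 4 counts and 1 count in the TNFdARE libraries and none in the WT libraries, so that both genotypes lay at or near the limit of 3 counts. Without TNFdARE Tconv C, Batf and Maf were lost (adjusted p = 0.12 and 0.093), and without TNFdARE Tconv B, Irf4 passed (adjusted p = 0.016), each time with 1 TNFdARE Tconv library left and the spread taken from the other groups. Batf was also lost without WT Tconv A (adjusted p = 0.05) and in the fit of all 42 libraries (0.074), Id2 passed with only the Tconv groups fitted (0.54, adjusted p = 0.012), and Nfil3 was called without either TNFdARE Treg library (adjusted p 0.02 to 0.021).

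In Tconv of the joint nodes 3 of the 10, Maf, Bhlhe40 and Batf, rose in TNFdARE mice and none fell, against 2.79% of all genes called (median 0.36 for the 10 and 0.01 for all genes). Maf stood at 22.9, 21.1 and 22.5 CPM in TNFdARE Tconv and at 5.79, 8.36 and 8.71 in WT (1.56 ± 0.14, adjusted p = 1.1e-05). Bhlhe40 stood at 20.9, 13.8 and 18.3 CPM in TNFdARE and at 5.75, 4.50 and 5.01 in WT (1.80 ± 0.28, adjusted p = 0.0016). Batf stood at 41.4, 43.2 and 49.7 CPM in TNFdARE and at 29.6, 32.5 and 35.5 in WT (0.47 ± 0.10, adjusted p = 0.014), and was lost without WT Tconv A or TNFdARE Tconv C (adjusted p = 0.087 and 0.084), with only the Tconv groups fitted (0.45, adjusted p = 0.079) and in the fit of all 42 libraries (0.66). Id2 was at 196, 185 and 159 CPM in TNFdARE and 190, 178 and 124 in WT, which overlap (0.12 ± 0.21). Gata3 was not called (-0.12 ± 0.16), nor were Irf4, Prdm1, Nfil3 and the nearly silent Pparg and Zeb2 (adjusted p 0.38 to 0.95). Regulatory genes moved with genotype in these Tconv sorts: of the 10 Treg core genes, 9 rose in TNFdARE Tconv of the mesenteric node and 9 in the joint nodes, and none was at 0 in a whole group. Their summed level was 404 and 497 CPM in TNFdARE mesenteric Tconv against 210 to 261 in WT, and 401 to 429 in TNFdARE Tconv of the joint nodes against 171 to 202 in WT. Foxp3 itself averaged 34.7 ± 4.35 CPM in TNFdARE Tconv of the joint nodes and 6.78 ± 0.807 in WT (n = 3 each). The part of these regulatory transcripts in the changes of Batf, Maf and Bhlhe40 was not tested.

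**Figure D2:**
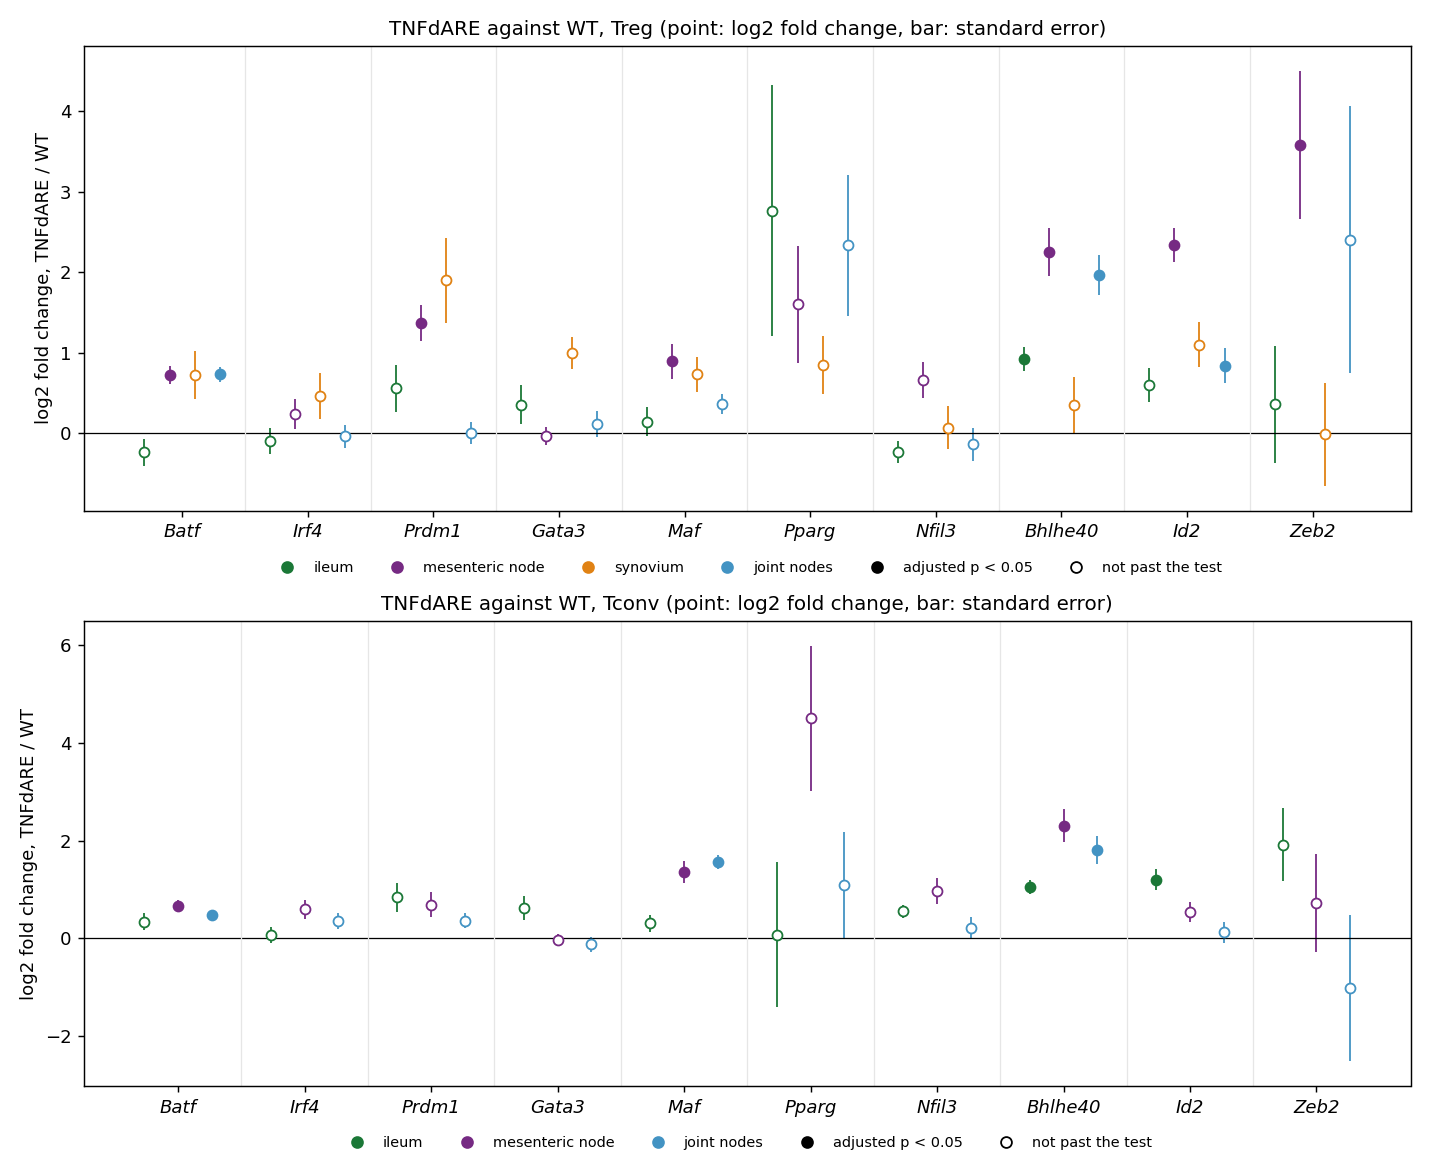
Log2 fold change, TNFdARE over WT, of each factor in Treg (top, 4 sites) and in Tconv (bottom, 3 sites), with the standard error of the fit as bars; filled points passed an adjusted p of 0.05. Bhlhe40 is past the test in ileum and both nodes in each cell type, from 0.92 in ileal Treg to 2.31 in mesenteric Tconv, and no synovial point is filled.

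Whether the genotype effect differed between the cell types was tested as an interaction. In the mesenteric node 1 of the 10 passed, against 0.209% of all genes called: the genotype effect on Id2 was larger in Treg than in Tconv, by 1.79 ± 0.30 on the log2 scale (adjusted p = 0.036). Its TNFdARE and WT Tconv libraries were nearer each other, at 207 and 227 CPM against 153, 137 and 149. The call was lost without any 1 of 8 of the 10 libraries of that site: TNFdARE Treg B, WT Treg B or C, or any Tconv library (adjusted p 0.069 to 0.15), and in the fit of all 42 libraries (0.25). In the joint nodes 1 of the 10 passed, against 0.449% of all genes called: the genotype effect on Maf, called in Tconv and not in Treg, was smaller in Treg by -1.20 ± 0.19 (adjusted p = 0.0094). In Treg of that site Maf stood at 91.3, 81.7 and 84.5 CPM in TNFdARE mice and at 57.1, 69.4 and 73.0 in WT. The call was lost without TNFdARE Treg B (adjusted p = 0.051) and in the fit of all 42 libraries (0.3). With the replicate block Id2 passed as well in the joint nodes (0.70, adjusted p = 0.037), which made 2 of the 10. For Batf the interaction was 0.06 ± 0.17 in the mesenteric node and 0.26 ± 0.14 in the joint nodes, and for Bhlhe40 -0.06 ± 0.44 and 0.16 ± 0.37.

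In Treg of the ileum, the gut site that is inflamed in TNFdARE mice, Bhlhe40 was the 1 gene of the 10 that rose, against 0.729% of all genes called, with a median of 0.36 for the 10 and 0.00 for all genes. It stood at 3485, 2803 and 3269 CPM in TNFdARE ileal Treg (A, B and C), against 1700, 1411 and 1813 in WT (0.92 ± 0.14, adjusted p = 0.017), with no overlap. The call was lost without TNFdARE A (adjusted p = 0.056), TNFdARE C (0.051) or WT A (0.07), and without both experiment A libraries, which hold the most plasma cell RNA (0.91, adjusted p = 0.11, a setting chosen after seeing the data). It was also lost in the fit of all 42 libraries (adjusted p = 0.085) and with only the Treg groups fitted (0.25). Id2 stood at 1654, 1729 and 1256 CPM in TNFdARE and at 1218, 922 and 860 in WT, and Prdm1 at 234, 264 and 190 in TNFdARE and 196, 180 and 85.2 in WT. Neither passed (adjusted p = 0.26 and 0.45). Batf (-0.24 ± 0.17), Irf4 (-0.10 ± 0.16), Gata3 (0.35 ± 0.24), Maf (0.14 ± 0.18), Nfil3 (-0.24 ± 0.14) and Zeb2 (0.36 ± 0.73) were not called either (adjusted p 0.5 to 0.89). Pparg stood at 11, 5.16 and 3.69 CPM in TNFdARE ileal Treg, against 2.99 in WT library B and 0 in WT libraries A and C, where 3 counts would be 0.148 and 0.134 CPM (2.76 ± 1.56, adjusted p = 0.49). Without WT library B, Pparg was called (adjusted p = 0.0069), with a fitted fold change that then rests on WT libraries at 0. Transcripts of other cells were uneven between these libraries. The plasma cell list summed to 11347, 1107 and 633 CPM in TNFdARE ileal Treg and to 3736, 1488 and 1047 in WT, and the part of that RNA in Prdm1, which plasma cells express, was not tested.

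In ileal Tconv, 2 of the 10 rose in TNFdARE mice, against 1.31% of all genes called (median 0.59 for the 10 and -0.02 for all genes). Bhlhe40 stood at 3967, 3912 and 3996 CPM in TNFdARE and at 2100, 2068 and 1603 in WT (1.06 ± 0.14, adjusted p = 0.0039), a call lost in the fit of all 42 libraries (0.061). Id2 stood at 948, 1526 and 1320 CPM in TNFdARE and at 567, 651 and 454 in WT (1.20 ± 0.21, adjusted p = 0.019), and was lost without WT Tconv A, B or C or TNFdARE Tconv B or C (adjusted p 0.05 to 0.11). Zeb2 stood at 88.1, 89.4 and 107 CPM in TNFdARE and at 31.9, 24.7 and 19.6 in WT, which do not overlap. In the fit that shares its spread with Treg, where WT Treg ranged from 1.34 to 36.0 CPM, Zeb2 did not pass (1.92 ± 0.74, adjusted p = 0.46). With only the Tconv groups fitted it did (1.93, adjusted p = 0.0014), and also without WT Treg C (adjusted p = 0.015). Prdm1 (171, 183 and 131 CPM in TNFdARE, 100.4, 113 and 60.5 in WT) and Nfil3 (382, 390 and 362 in TNFdARE, 278, 243 and 261 in WT) separated the groups without passing (adjusted p = 0.35 and 0.098). Prdm1 passed with the replicate block (0.88, adjusted p = 0.026). Nfil3 passed with the block (0.56, adjusted p = 0.047), with DESeq2 (0.0019), with the sheet number covariate (0.025), with only the Tconv groups fitted (0.016) and without WT Treg B (0.019). With the block, 4 of the 10 were called, beside 338 of all genes against 208 without it. Of the 10 Treg core genes, 6 rose and 1 fell in TNFdARE ileal Tconv, with none at 0, and their sum was 3773 to 4162 CPM against 1947 to 2126 in WT. The part of those transcripts in the changes of Bhlhe40 and Id2 was not tested. In the interaction of genotype and cell type none of the 10 passed with edgeR, against 0.0188% of all genes called (646 of 15916 genes had an unadjusted p below 0.05). DESeq2 called 1, Nfil3 (-0.80, adjusted p = 0.0086), which also passed without WT Treg B, as did Pparg (adjusted p = 0.02 each).

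In the synovium, the joint lining, none of the 10 passed between TNFdARE and WT Treg with edgeR, against 0.156% of all genes called. There 1792 of 17959 genes had an unadjusted p below 0.05, DESeq2 called 3 of the 10 and the fit of all 42 libraries 5. Gata3 stood at 689, 738 and 682 CPM in TNFdARE synovial Treg (A, B and C) and at 313 and 401 in WT (A and B), with no overlap (1.00 ± 0.20, adjusted p = 0.16). Id2 stood at 1687, 1044 and 1718 CPM in TNFdARE and at 606 and 802 in WT (1.10 ± 0.28, adjusted p = 0.26). Prdm1 stood at 189, 243 and 227 CPM in TNFdARE and at 24 and 95.1 in WT (1.90 ± 0.53, adjusted p = 0.31). These are the 3 genes that DESeq2 called (adjusted p = 1.7e-06 for Gata3, 0.0045 for Id2 and 0.0095 for Prdm1), and Prdm1 and Gata3 passed with edgeR with WT Treg A as the single WT library, whose spread is then taken from the other groups (adjusted p = 0.0054 and 0.03). Maf was at 209, 279 and 281 CPM in TNFdARE and 176 and 138 in WT (0.73 ± 0.22), and Pparg at 146, 119 and 80.3 in TNFdARE and 81.7 and 48.5 in WT (0.85 ± 0.36). Batf (0.72 ± 0.30), Irf4 (0.46 ± 0.28), Bhlhe40 (0.34 ± 0.35), Nfil3 (0.07 ± 0.27) and Zeb2 (-0.02 ± 0.64) were not called either. Over the 10 the median log2 fold change was 0.73, against 0.12 over all genes. Fibroblast transcripts moved with genotype here: the 9 fibroblast and fat cell markers summed to 4782, 6476 and 1485 CPM in TNFdARE synovial Treg and to 16639 and 13527 in WT, and 1 of the 8 tested fell. Of that list Plin1, a fat cell gene, was at 0 in all 5 libraries, and Adipoq stayed at or below 0.210 CPM in TNFdARE and at 4.50 and 6.58 in WT. Fabp4, also in the list, had counts in both genotypes. Macrophage and dendritic cell markers summed to 32, 22.8 and 8.58 CPM in TNFdARE and to 370 and 15.6 in WT. The part of that RNA in these levels was not tested.

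For synovial Tconv the 2 TNFdARE libraries stand beside 1 WT library, so there is no replicate check and no test. Pparg was at 85.2 and 67.6 CPM in TNFdARE synovial Tconv and had no count in the WT library, where 3 counts would be 0.143 CPM. Against that floor of 3 counts in the library, the TNFdARE mean was at least 534-fold higher. Prdm1 was at 139 and 117 CPM in TNFdARE and 10.3 in WT, Gata3 at 497 and 628 and 151, and Irf4 at 180 and 102 and 37.9, in the same order. Bhlhe40 was at 1807 and 1592 CPM in TNFdARE and 710 in WT, and Id2 at 1390 and 1243 and 1033. Other transcripts differ between these libraries as well. The Treg core list summed to 4594 and 4794 CPM in TNFdARE and 904 in WT, and the CD8 and NK cell list to 44.1 and 116 CPM in TNFdARE and 1220 in WT.

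The second question was where Treg carry more of these factors than Tconv, with the genotypes weighted equally. In the mesenteric node 8 of the 10 were higher in Treg, against 38.6% of all genes called in either direction, with a median of 1.92 for the 10 and 0.02 for all genes. Nfil3 had the smallest adjusted p (3.37 ± 0.18, adjusted p = 5.9e-08), at 81.4 and 44.2 CPM in TNFdARE Treg and 42, 42.2 and 39.6 in WT Treg, against 6.53 and 7.39 in TNFdARE Tconv and 4.08, 2.47 and 3.91 in WT Tconv. Prdm1 (3.09 ± 0.18), Bhlhe40 (2.67 ± 0.23), Maf (2.22 ± 0.17), Irf4 (1.31 ± 0.13), Gata3 (0.91 ± 0.08) and Batf (0.85 ± 0.08) were higher as well (adjusted p at most 1e-05). Pparg was called at levels below 1.2 CPM (4.51 ± 0.79, adjusted p = 0.0013). All WT Tconv libraries were at 0, so the fitted value is no estimate of the fold. No Tconv library exceeded 0.170 CPM, so Pparg passed the filter on low counts through Treg libraries alone. The count of 8 includes this call, which is not independent of the filter. Id2 was not called (-0.34 ± 0.15, adjusted p = 0.09), except with the replicate block (-0.36, adjusted p = 0.047), DESeq2 (0.047), no filter (5.5e-05), and without WT Treg A or TNFdARE Treg B (0.029 and 0.0026). Within WT alone, Id2 was lower in Treg (-1.24, adjusted p = 0.00045, a contrast chosen after seeing the data). Zeb2 lay below 1 CPM in all but the TNFdARE Treg libraries and was not called (adjusted p = 0.086).

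In the joint nodes 8 of the 10 were higher in Treg and Id2 was lower, against 43.2% of all genes called (median 1.98 for the 10 and 0.00 for all genes). Maf was 2.56 ± 0.10 higher on the log2 scale (adjusted p = 3.4e-11), with Treg at 91.3, 81.7 and 84.5 CPM (TNFdARE) and 57.1, 69.4 and 73.0 (WT) and Tconv at 22.9, 21.1 and 22.5 (TNFdARE) and 5.79, 8.36 and 8.71 (WT). Irf4 was 2.65 ± 0.12 higher (adjusted p = 1.7e-10), with Treg at 72.5, 70.0 and 67.4 CPM (TNFdARE) and 62.6, 69.3 and 83.5 (WT) and Tconv at 12.4, 14.8 and 11.7 (TNFdARE) and 7.01, 10.7 and 13 (WT). No Tconv library reached the lowest Treg library for either gene. Bhlhe40 (2.75 ± 0.19), Prdm1 (2.08 ± 0.11), Nfil3 (1.88 ± 0.15), Gata3 (1.01 ± 0.11), Batf (0.73 ± 0.07) and Pparg (2.81 ± 0.70) were higher too (adjusted p at most 0.0046). Pparg did not exceed 0.403 CPM in any Tconv library there, and passed the filter on low counts through Treg libraries alone. Id2 ran the other way, at 153, 117 and 103 CPM in TNFdARE Treg and 83.7, 76.5 and 47.8 in WT Treg, against 196, 185 and 159 in TNFdARE Tconv and 190, 178 and 124 in WT Tconv (-0.88 ± 0.15, adjusted p = 0.00028). Within TNFdARE alone the Id2 difference was -0.52 (adjusted p = 0.083), and within WT alone Pparg was not called (2.18, adjusted p = 0.13). Zeb2 was nearly silent on both sides, with a highest value of 2.26 CPM in WT Tconv C. Without WT Tconv C and TNFdARE Tconv B, the libraries with the most genes detected, none of the calls in this comparison was lost.

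In the ileum Treg had more Gata3, Nfil3 and Id2 and less Irf4 than Tconv, which makes 4 of the 10, against 14.8% of all genes called (median 0.26 for the 10 and 0.02 for all genes). Gata3 stood at 628, 744 and 450 CPM in TNFdARE Treg and 570, 481 and 348 in WT Treg, against 290, 248 and 156 in TNFdARE Tconv and 165, 156 and 132 in WT Tconv (1.52 ± 0.17, adjusted p = 0.00017). Nfil3 stood at 544, 475 and 479 CPM in TNFdARE Treg and 614, 472 and 637 in WT Treg, above every Tconv library, the highest of which was at 390 (0.78 ± 0.10, adjusted p = 0.00029). Irf4 stood at 109, 173 and 154 CPM in TNFdARE Treg and 143, 147 and 168 in WT Treg, below every Tconv library (263, 225 and 230 in TNFdARE, 227, 252 and 212 in WT; -0.65 ± 0.11, adjusted p = 0.0028). Id2 was called (0.57 ± 0.15, adjusted p = 0.024) and was lost without any 1 of WT or TNFdARE Treg A, TNFdARE Treg B, WT Tconv A or C or TNFdARE Tconv C (adjusted p 0.052 to 0.08), without both Treg libraries of experiment A (0.1), with the sheet number covariate (0.18) and within TNFdARE alone (0.27, adjusted p = 0.58). Nfil3 was lost within TNFdARE alone (0.39, adjusted p = 0.16) and Irf4 within WT alone (-0.56, adjusted p = 0.057), contrasts that were chosen after seeing the data. Prdm1 did not pass (0.64 ± 0.21, adjusted p = 0.064), but did with the replicate block (0.63, adjusted p = 0.0049) and without WT Treg C (0.0086). Batf (-0.20 ± 0.12), Maf (-0.04 ± 0.13), Bhlhe40 (-0.26 ± 0.10), Zeb2 (-1.22 ± 0.52) and Pparg (1.59 ± 1.07) were not called. Bhlhe40 passed without WT Treg C (adjusted p = 0.049), and Zeb2 without WT Treg B or C (0.046 and 0.02). In the synovium Pparg was the 1 gene of the 10 that passed, against 1.1% of all genes called (6.98 ± 0.59, adjusted p = 0.0044). That value rests on the WT Tconv library with no Pparg count: within TNFdARE mice, Pparg stood at 146, 119 and 80.3 CPM in Treg and 85.2 and 67.6 in Tconv, a difference of 0.55 (adjusted p = 1.0). Irf4 (1.18 ± 0.25, adjusted p = 0.093), Prdm1 (1.61 ± 0.45, 0.2), Gata3 (0.74 ± 0.17, 0.11) and Nfil3 (0.73 ± 0.23, 0.28) did not pass, though DESeq2 called 5 of the 10. Over all genes DESeq2 called 1601 in this comparison, against 197 with edgeR. Without WT Treg B, Irf4, Prdm1 and Gata3 passed (adjusted p 0.029 to 0.049), and Prdm1 also passed without WT Treg A (0.0089), each time with 1 WT Treg library left.

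**Figure D3:**
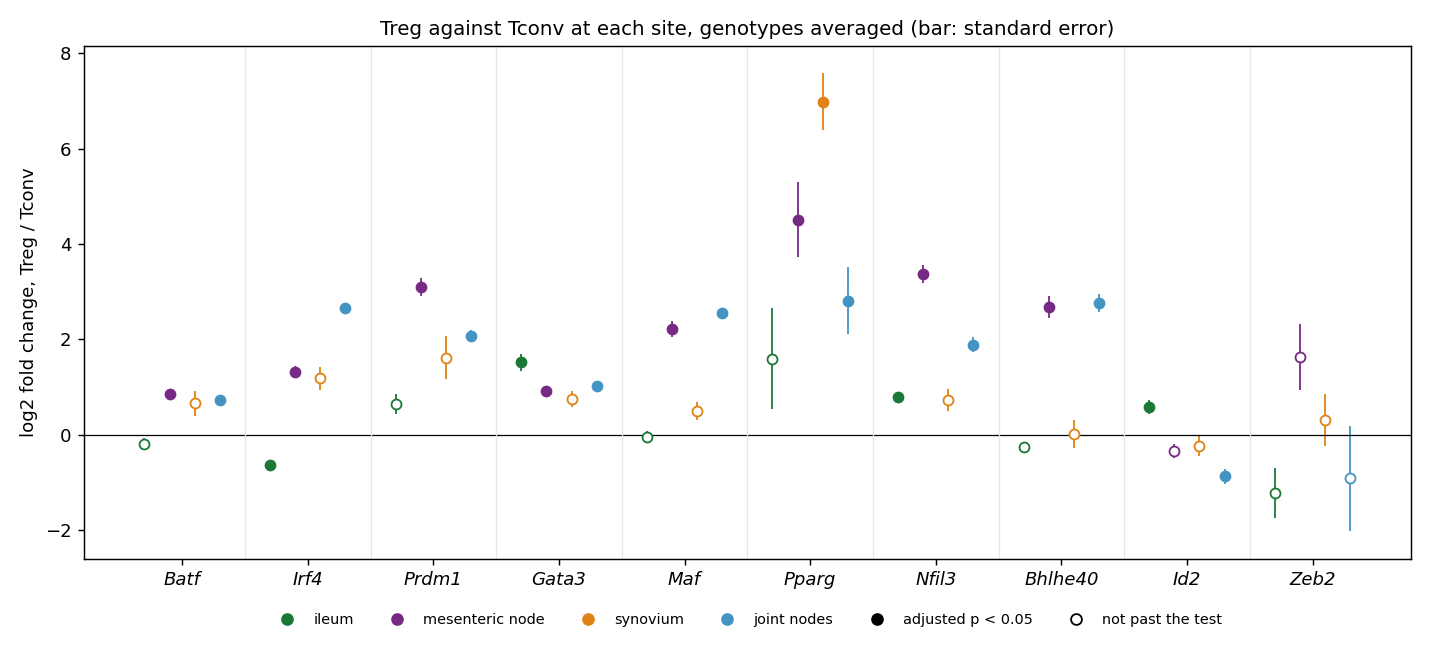
Log2 fold change, Treg over Tconv, of each factor at the 4 sites with the genotypes averaged, and the standard error as bars; filled points passed an adjusted p of 0.05. Filled points above 0 mark 8 of the 10 factors at each node, while the ileal points lie between -1.22 and 1.59, with Irf4 below 0 and Gata3 above it.

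The third question was how far the factors differed by site, tissue against its draining node. The input of 100 pg or 2 ng may differ between tissues and nodes, which the labels do not say, and its part in these comparisons was not tested. In Treg, all 10 were higher in the synovium than in the joint nodes, against 37.7% of all genes called (median 2.42 for the 10 and -0.09 for all genes). Pparg stood at 146, 119 and 80.3 CPM in TNFdARE and 81.7 and 48.5 in WT synovial Treg, against 2.95, 2.95 and 1.04 in TNFdARE and 0.377, 0.687 and 0.294 in WT Treg of the joint nodes (6.37 ± 0.38, adjusted p = 2.3e-06). Zeb2 stood at 13.7, 78.2 and 49.2 CPM in TNFdARE and 59.9 and 35.9 in WT synovial Treg and never above 1.16 in joint-node Treg (7.50 ± 0.76, adjusted p = 6.5e-05). Bhlhe40 stood at 1537, 1200 and 1097 CPM in TNFdARE and 608 and 1437 in WT synovial Treg, against 150, 121 and 107 in TNFdARE and 46.7, 29.6 and 20.1 in WT Treg of the joint nodes (4.15 ± 0.29, adjusted p = 5.5e-06). Nfil3 (4.11 ± 0.17), Id2 (3.44 ± 0.21), Maf (1.39 ± 0.11), Gata3 (1.29 ± 0.12), Irf4 (1.25 ± 0.12), Prdm1 (1.20 ± 0.28) and Batf (1.00 ± 0.15) were also higher (adjusted p at most 0.0093). Prdm1 was not higher within WT alone (0.27, adjusted p = 0.68, chosen after seeing the data), and not with the sheet number covariate (1.20, adjusted p = 0.064). The fibroblast and fat cell markers summed to between 1485 and 16639 CPM in synovial Treg and between 1.18 and 3.85 in joint-node Treg, and 7 of the 8 tested were higher in the synovium. Fat cells and macrophages express Pparg, and macrophages express Zeb2 and Maf. Of the fat cell genes, Plin1 was at 0 in every synovial Treg library, while Adipoq was at 0.210 CPM or less in TNFdARE and at 4.50 and 6.58 in WT. Fabp4, another gene of that list, had counts in synovial Treg of both genotypes. The 12 macrophage and dendritic cell markers summed to 32, 22.8 and 8.58 CPM in TNFdARE and 370 and 15.6 in WT synovial Treg, against 16.6, 7.74 and 4.82 in TNFdARE and 3.94, 1.33 and 1.52 in WT joint-node Treg, and 2 of the 7 tested were higher in the synovium. Of that list C1qb, C1qc and Itgax were at 0 in TNFdARE synovial Treg and Fcgr1, Itgax and Flt3 in WT. The other genes of the list had counts in synovial Treg of the genotype concerned. The part of these cells in the site differences was not tested, and without WT synovial Treg A, which leaves 1 WT library, 10 of the 10 were called.

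Ileal Treg were higher than mesenteric Treg in 8 of the 10, against 29.2% of all genes called (median 1.90 for the 10 and 0.03 for all genes). Bhlhe40 (4.73 ± 0.26, adjusted p = 2.2e-06) stood at 3485, 2803 and 3269 CPM in TNFdARE and 1700, 1411 and 1813 in WT ileal Treg, against at most 252 in the node. Nfil3 (3.39 ± 0.18, adjusted p = 1.7e-06) stood at 472 CPM or more in every ileal Treg library and at 81.4 or less in every mesenteric one. Id2 (3.15 ± 0.21), Zeb2 (4.14 ± 0.82), Gata3 (1.62 ± 0.16), Irf4 (0.83 ± 0.14), Maf (0.83 ± 0.18) and Batf (0.53 ± 0.13) were higher too (adjusted p at most 0.015). Prdm1 did not pass (0.65 ± 0.23, adjusted p = 0.054) but did with the replicate block (0.58, adjusted p = 0.03) and without mesenteric TNFdARE Treg B or ileal WT Treg C (0.049 and 0.0072), and Pparg did not pass (2.18 ± 1.23, adjusted p = 0.2). Within TNFdARE alone, 4 of the 10 were called (a contrast chosen after seeing the data), and Batf (0.08, adjusted p = 0.85), Maf (0.49, 0.3), Irf4 (0.69, 0.089) and Zeb2 (2.55, 0.2) were lost. Batf and Maf were also lost without mesenteric TNFdARE Treg C, which leaves 1 TNFdARE library there (adjusted p = 0.094 and 0.061), and Batf with the sheet number covariate (0.33, adjusted p = 0.1). Of the epithelial, plasma cell and fibroblast markers 8 of 8, 6 of 7 and 6 of 7 were higher in ileal Treg, and the part of that RNA was not tested.

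Between the tissues, 4 of the 10 differed in Treg, against 7.42% of all genes called (median 0.32 for the 10 and 0.13 for all genes). Ileal Treg had more Bhlhe40 (1.04 ± 0.21, adjusted p = 0.019), Nfil3 (1.25 ± 0.16, adjusted p = 0.0019) and Maf (0.99 ± 0.17, adjusted p = 0.007) than synovial Treg. Pparg was lower in ileal Treg, with a highest value of 11 CPM and a lowest synovial value of 48.5 (-5.07 ± 0.98, adjusted p = 0.013), and was lost without ileal TNFdARE Treg B (adjusted p = 0.05). Bhlhe40 was lost without both ileal Treg libraries of experiment A (0.99, adjusted p = 0.098) and within WT alone (0.72, adjusted p = 0.26). Within TNFdARE alone Maf (0.72, adjusted p = 0.15) and Pparg (-4.09, adjusted p = 0.17) were lost, as was Pparg within WT alone (-6.06, adjusted p = 0.064). Irf4 (-0.16 ± 0.15), Gata3 (0.12 ± 0.16), Batf (0.33 ± 0.19), Id2 (0.31 ± 0.18), Prdm1 (0.75 ± 0.33) and Zeb2 (-1.14 ± 0.68) were not called. Prdm1 passed without synovial WT Treg B (1.40, adjusted p = 0.0078), where A is the single WT synovial library and its spread comes from the other groups.

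In Tconv, all 10 were higher in ileal than in mesenteric Tconv, against 61.0% of all genes called (median 3.11 for the 10 and 0.08 for all genes). Bhlhe40 stood at 3967, 3912 and 3996 CPM in TNFdARE and 2100, 2068 and 1603 in WT ileal Tconv, against 29 and 31.7 in TNFdARE and 5.90, 4.24 and 7.85 in WT mesenteric Tconv (7.68 ± 0.17, adjusted p = 3.2e-11). Nfil3 (6.00 ± 0.12), Zeb2 (6.98 ± 0.33), Prdm1 (3.12 ± 0.19), Maf (3.11 ± 0.14), Irf4 (2.80 ± 0.12), Id2 (2.24 ± 0.13), Batf (1.59 ± 0.08) and Gata3 (1.03 ± 0.14) followed (adjusted p at most 4.5e-05). Pparg was called at 1.13 CPM or less (adjusted p = 0.00039). No mesenteric Tconv library exceeded 0.170 CPM of Pparg, so it passed the filter on low counts through ileal libraries alone. In TNFdARE Tconv all 10 were higher in the synovium than in the joint nodes, against 31.3% of all genes called (median 3.38 for the 10 and -0.11 for all genes), from Batf (1.40 ± 0.13) to Pparg (8.51 ± 0.68, adjusted p = 2.3e-05). There Pparg did not exceed 0.403 CPM in the joint nodes, and passed the filter on low counts through synovial libraries alone. Of the 10 Treg core genes, 9 were also higher in that comparison, and Foxp3, at 615 and 618 CPM in the synovium, was 4.16 higher on the log2 scale (adjusted p = 2.5e-07).

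**Figure D4:**
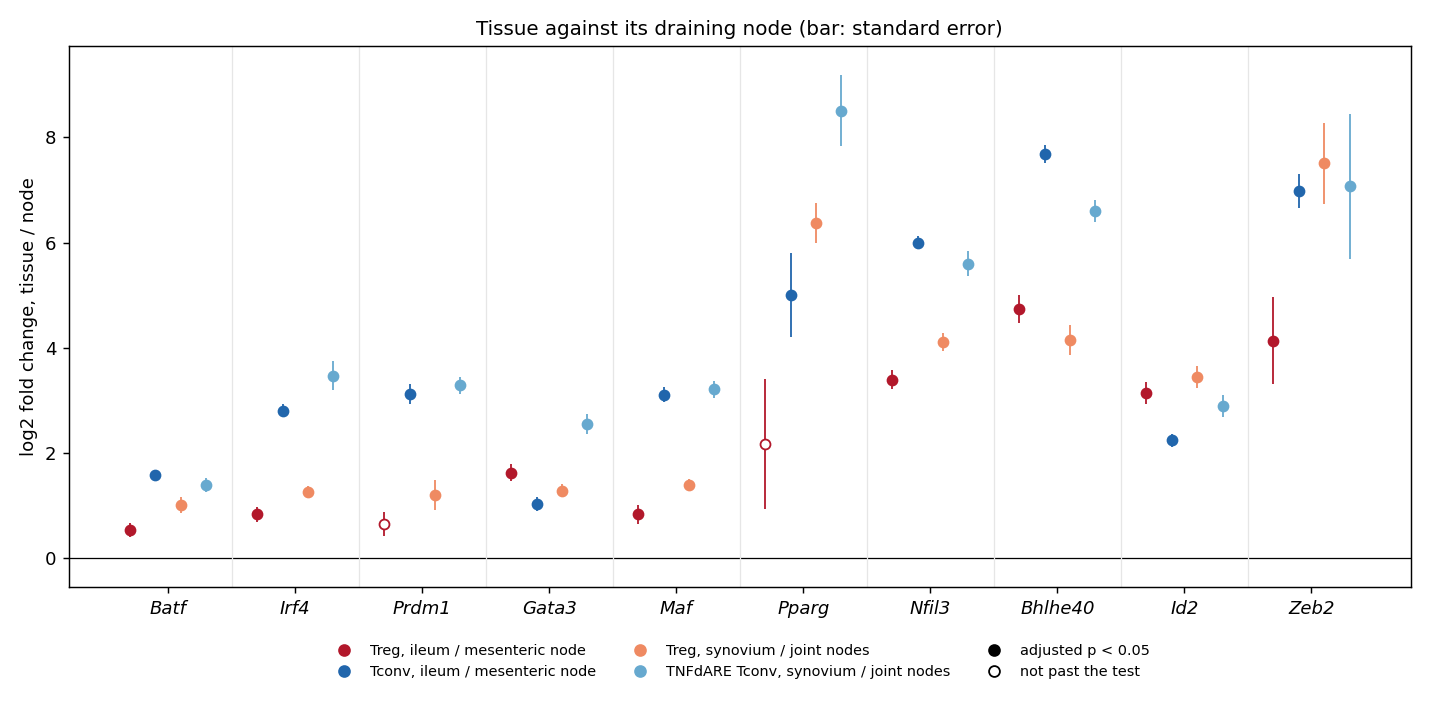
Log2 fold change, tissue over its draining node, of each factor in Treg and Tconv of the ileum and of the synovium, with the standard error as bars; filled points passed an adjusted p of 0.05. In the ileal pair the Tconv point lies above the Treg point for all factors except Gata3 and Id2, with Bhlhe40 at 7.68 in Tconv and 4.73 in Treg.

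For ileum and mesenteric node the difference between the cell types was tested in a fit of all 4 populations. The step from node to ileum was smaller in Treg than in Tconv for 6 of the 10 and larger for 1, against 6.25% of all genes called (median -2.37 for the 10 and -0.04 for all genes). It was smaller for Bhlhe40 by -2.94 ± 0.27 on the log2 scale (adjusted p = 1.1e-06), Nfil3 by -2.60 ± 0.20 (2.1e-07), Prdm1 by -2.47 ± 0.32 (4.7e-05), Maf by -2.27 ± 0.23 (4.8e-06), Irf4 by -1.96 ± 0.19 (3e-06) and Batf by -1.05 ± 0.15 (0.00019). All 6 were among the 8 genes that were higher in mesenteric Treg than in mesenteric Tconv. That is no separate result, because the tested value is the Treg against Tconv difference in the ileum less that in the node. Id2 took the larger step in Treg (0.91 ± 0.24, adjusted p = 0.027). That call was lost without any 1 of mesenteric TNFdARE Treg C, WT Treg B or C, TNFdARE Tconv B or C, or ileal WT Tconv C (adjusted p 0.052 to 0.1), without both ileal Treg libraries of experiment A (0.81, adjusted p = 0.064) and with the sheet number covariate (0.82, adjusted p = 0.11), and within TNFdARE alone the Id2 value turned to -0.24 (adjusted p = 0.95, a contrast chosen after seeing the data). Gata3 did not pass (0.60 ± 0.22, adjusted p = 0.14) except with the replicate block (0.60, adjusted p = 0.013) and DESeq2 (0.042). Zeb2 (-2.83 ± 0.96, adjusted p = 0.1) and Pparg (-2.85 ± 1.43, adjusted p = 0.32) did not pass, while Zeb2 did without ileal WT Treg B or C (0.031 and 0.03) and Pparg without ileal WT Treg B (0.00044).

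Other genes of the same circuits, in lists set with earlier results of these data known, give the context. Each count stands beside the share of all genes called in either direction and the median log2 fold changes. Among the AP-1 and IRF partners of BATF and IRF4, 6 of the 9 tested were higher in synovial than in joint-node Treg, against 37.7% of all genes (median 2.72 for the list and -0.09 for all genes), led by Fosl2 (5.32), Jund (1.69), Fosb (5.30) and Junb (2.08). In ileal against mesenteric Treg 3 of the 10 tested were higher (Fosl2 5.33, Junb 2.63 and Jund 0.87), near the 29.2% of all genes (median 1.82 for the list and 0.03 for all genes). Of the 18 effector and tissue Treg surface and secreted genes, 7 rose in TNFdARE mesenteric Treg, against 5.68% of all genes (median 0.92 and 0.01), among them Itgae, an integrin chain of epithelium-bound T cells (1.90, adjusted p = 0.00022), Cxcr6 (2.84), Gzmb (3.18) and Lgals1 (0.81). In TNFdARE joint-node Treg 7 rose and 2 fell, against 5.7% of all genes (median 0.48 and -0.01), with Ccr8, a chemokine receptor of tissue Treg (0.91), Itgae (1.40), Klrg1 (0.88) and Ebi3 (1.25) the first by adjusted p. In TNFdARE ileal Treg 1 rose (Itgae, 1.23), against 0.729% of all genes (median 0.28 and 0.00). Of the 10 naive and resting T cell factors, 5 fell in TNFdARE mesenteric Treg, against 5.68% of all genes (median -0.45 and 0.01), including Bach2, a repressor that holds back effector genes (-0.80, adjusted p = 0.0023), Lef1 (-0.50), Satb1 (-0.58) and Id3 (-0.96). In TNFdARE joint-node Treg 3 of the 10 fell (Satb1 -0.63, Foxp1 -0.39 and Bach2 -0.35), against 5.7% of all genes (median -0.17 and -0.01), and in TNFdARE ileal Treg 2 fell (Lef1 -0.77 and Tcf7 -0.82), against 0.729% (median -0.65 and 0.00).

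Of the 10 PPAR-gamma and lipid handling genes, 7 were higher in synovial than in joint-node Treg and none lower, against 37.7% of all genes called (median 2.52 for the list and -0.09 for all genes). The leading 4 were Plin2, a lipid droplet coat protein (2.97), Dgat1 (3.40) and Dgat2 (2.09), which make triglycerides, and the desaturase Scd1 (7.83), and their adjusted p-values were at most 0.00017. Fabp5, a fatty acid carrier, rose in TNFdARE Treg of the ileum (1.35, adjusted p = 0.0089), the mesenteric node (2.72, adjusted p = 8.5e-05) and the joint nodes (0.80, adjusted p = 0.0048), where Pparg was not called. It was 1 of the 10, 1 of the 8 and 2 of the 8 genes tested from that list that rose, against 0.729%, 5.68% and 5.7% of all genes (list medians 0.23, 0.33 and 0.17). Of the close relatives of the factors, such as Bhlhe41 and Hlf, 9 of the 16 tested were higher and 1 lower in synovial against joint-node Treg, against 37.7% of all genes (median 1.31 and -0.09). In TNFdARE mesenteric Treg Hlf rose (2.39) and Id3, the sister gene of Id2, fell, 2 of the 13 relatives tested, against 5.68% of all genes (median -0.13 and 0.01). Id3 was also the 1 of the 5 E proteins and Id proteins tested that changed there (median -0.10).

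The factors also varied together across the 16 groups, a description in which every point shares site and depth with others. Pearson's r of log2 CPM over the 16 group means was highest for Nfil3 with Bhlhe40 (0.961), Batf with Maf (0.945) and Irf4 with Maf (0.941), and lowest for Pparg with Maf (0.468) and Prdm1 with Id2 (0.492). Among 8408 candidate genes, those with the pattern most like Maf included Tigit (0.99) and B4galnt4 (0.968). Those most like Gata3 included Ccr8 (0.974) and Myo1g (0.959). Bhlhe40 was most like Pmaip1 (0.981), Rora (0.976) and Ifngr1 (0.975), and Nfil3 most like Srgn (0.984), Gadd45b (0.983) and Ifngr1 (0.982). Zeb2 was most like Cxcr6 (0.966), Serpinb1a (0.966) and Ypel5 (0.963), and Pparg most like Arl8a (0.955), Ggh (0.954) and Amdhd2 (0.947). For Batf they were Dynlt3 (0.956), Tigit (0.95) and Aplp1 (0.949), for Irf4 Cemip2 (0.968), Phactr2 (0.966) and B4galnt4 (0.959), for Prdm1 Arhgef12 (0.968), Arhgap31 (0.963) and Havcr2 (0.961), and for Id2 Fancf (0.961), Sqstm1 (0.947) and Nfkbib (0.944). Genes that overlap a factor in the annotation, antisense genes included, held under 1% of its counts, 0.841% for Gm44079 at Pparg being the most.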

How the data were processed

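RNA of sorted Treg and Tconv was amplified with SMART-Seq v4 PLUS from 100 pg or 2 ng (which library had which is not given in the sources used here) and read as single 100-base reads. Reads were trimmed with Cutadapt 1.15 and aligned with Bowtie2 2.3.3.1 to GRCm38, per the submitters' processing notes; the counter is not given in the sources used here. The authors deposited raw counts for 46603 genes in 42 libraries, which all tests use. The authors' FPKM values, deposited for 18964 genes, served only to compare the order of group means. Symbols came from the GENCODE M21 annotation, with 46091 matched.

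Libraries were grouped by their labels. Counts were filtered with filterByExpr, scaled by TMM and tested with edgeR 4.0.16 in R 4.3.3 (glmQLFit and glmQLFTest, Benjamini-Hochberg adjusted p over all genes below 0.05), in fits of the 4 groups of a site or of a pair of sites. Standard errors are the log2 fold change over the root of F, and levels on a log scale used a prior count of 2. The pipeline was tested on simulated data. Alternatives were DESeq2 1.42.0, RLE factors, no filter, the experiment as a replicate block, 1 fit of all 42 libraries and only the groups compared. Others were each library left out, and a covariate for libraries numbered above 32 in the column headers. The named genes are the 10 members in every comparison, up to 4 called genes of each other list by adjusted p, and the 3 genes most like each member, of which some are not reported here. Members and lists were chosen with earlier results of these data known.

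The labels give 3 independent experiments. The experiment letter was taken as a block only in an alternative fit, and the main tests had no such term. Deviations from group means correlated above 0.1 in 8 of 18 pairs of TNFdARE with WT libraries (median 0.08, -0.515 to 0.45) and in 13 of 19 pairs of Treg with Tconv libraries (median 0.15, -0.036 to 0.428). Amplified reads are not independent molecules, so limits from 3 counts cover counting error only.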

Additional observations from a re-analysis of the deposited data

Results flagged for a closer look

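In the mesenteric node the genotype effect on Id2 was larger in Treg than in Tconv by 1.79 on the log2 scale (adjusted p = 0.036 with edgeR's quasi-likelihood test), with Id2 higher in TNFdARE libraries in 2 of 2 Treg and 2 of 2 Tconv. In the joint nodes that on Maf was smaller in Treg than in Tconv, by -1.20 (adjusted p = 0.0094), with every TNFdARE library above every WT library in both cell types. Both calls were lost in the fit of all 42 libraries. The Id2 call was also lost when any of most single libraries of its site was left out, and the Maf call without joint-node TNFdARE Treg B.

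The step from mesenteric node to ileum differed between Treg and Tconv for 7 of the 10 factors, as a test of the difference itself, against 6.25% of all genes called. It was smaller in Treg for Batf (-1.05), Irf4 (-1.96), Prdm1 (-2.47), Maf (-2.27), Nfil3 (-2.60) and Bhlhe40 (-2.94), and larger in Treg for Id2 (0.91). The Id2 call was lost when any of several single libraries was left out, and its sign turned within TNFdARE alone. The ileal libraries carry more epithelial, plasma cell and fibroblast transcripts than the node libraries, and the part of that RNA in these differences was not tested.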

How the results depend on the processing

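Counts here are of the 10 factors called by edgeR unless another tool is named. The number of all genes called moved with the setting too. For synovial Treg against Tconv it was 197 in the report, 1601 with DESeq2 and 3262 in the fit of all 42 libraries. For the genotype effect in mesenteric Tconv it was 350, 680 and 121 in the same order. With DESeq2 the genotype effect called 5 in mesenteric Tconv (3 in the report) and 3 in synovial Treg (0), Treg against Tconv called 5 in the synovium (1), the ileal interaction 1 (0) and the difference between the nodes 1 (0). Without the filter on low counts, 7 were called in mesenteric Tconv, 2 in each node's interaction (1 each), 2 for synovial Treg against Tconv and 4 for the difference between the nodes. A fit of all 42 libraries called 0 in ileal Treg (1), 1 in ileal Tconv (2), 2 in mesenteric Treg (6), 0 in each node's interaction, 5 in synovial Treg and 6 for synovial Treg against Tconv. With only the groups compared, 0 were called in ileal Treg, 4 in ileal Tconv and 5 in joint-node Treg (3). The replicate block called 4 in ileal Tconv, 2 in the joint-node interaction and 2 for the difference between the nodes; beyond the blocked values given in the report, it changed no other call. The sheet number covariate called 2 in joint-node Treg, 7 for ileal against mesenteric Treg (8) and 6 for the tissue interaction (7), and only the groups compared called 2 in joint-node Tconv (3) and 4 in mesenteric Tconv. RLE factors gave 1 further call (Prdm1, ileal against mesenteric Treg).

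Leaving out 1 library at a time (in groups of 2 the lone sample is assumed to vary like the other groups) gave 0 to 2 calls in ileal Treg, 1 to 3 in ileal Tconv, 3 to 7 for ileal Treg against Tconv, 0 to 2 in the ileal interaction, 2 to 7 in mesenteric Treg, 1 to 4 in mesenteric Tconv, 0 to 1 in each node's interaction, 2 to 4 in joint-node Treg, 2 to 3 in joint-node Tconv, 0 to 2 in synovial Treg, 1 to 4 for synovial Treg against Tconv, 6 to 9 for ileal against mesenteric Treg, 4 to 5 for ileal against synovial Treg, 0 to 3 for the difference between the nodes and 6 to 9 for the tissue interaction.

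Among settings chosen after seeing the data, leaving out both ileal Treg libraries of experiment A gave 0 calls in ileal Treg. TNFdARE groups alone gave 2 calls for ileal Treg against Tconv (4), 0 for the synovium, 4 for ileal against mesenteric Treg (8) and 2 for ileal against synovial Treg (4), where WT groups alone gave 2 as well. With TNFdARE alone the tissue interaction of Id2 was -0.24 (adjusted p = 0.95), against 0.91 with both genotypes, and the cause was not tested. Depth limits Pparg and Zeb2 in the nodes, where some libraries hold 3 counts or fewer, and groups of 1 or 2 libraries limit the synovium and the TNFdARE mesenteric node.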
